A study of Mus musculus with 6 samples.

Results

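Collagen genes were followed in the RNA of monocytes sorted from mouse tumours. The deposited count table was searched for protein-coding genes whose symbol is Col, a number, a and a number, which gave 44 genes of 27 collagen types among 56980 genes. They were divided by the known structure of their products into 11 fibrillar collagens, 8 basement membrane collagens (type IV with types XV and XVIII) and 25 other collagens. RNA was sequenced from 6 libraries of CD11b+ Ly6Chi Ly6G- monocytes taken from tumours of B16F10, a transplanted mouse melanoma line, which carried the mCherry marker per the series' design text. The genotype was WT in both groups, and both had received lipid nanoparticles (LNP). In LNP-GFP, the control (3 libraries), the label names GFP, a fluorescent protein, and in LNP-Gsdme (3 libraries) it names Gsdme, the gene of gasdermin E, a pore-forming protein. The series asked how gene expression in tumour-infiltrating monocytes changes after LNP-Gsdme. Age, dose, time of sampling and the cells that took up the particles are not given in the labels. Whether each library came from its own animal is not stated, so the p-values cover the spread between these libraries and that spread may be technical.

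Collagens are extracellular matrix proteins built from 3 chains wound into a triple helix, which requires a glycine in each repeat of 3 residues. Fibrillar collagens assemble into the banded fibrils that give tissue its strength, and in tumours they are made chiefly by fibroblasts. Type IV collagens form the sheet-like network of basement membranes under endothelium and around pericytes, and the remaining types coat fibrils, anchor cells or span membranes. Monocytes are not known as a main source of fibrillar collagen.

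The sequences show what divides the classes, a difference known before and not measured by the libraries. In the GENCODE transcripts of the mouse (GRCm38), all 44 genes had a coding transcript, and the longest uninterrupted run of codon triplets that begin with glycine was 216 to 344 triplets in the fibrillar collagens (median 338). The same run was 30 to 66 triplets in the basement membrane collagens (median 41) and 23 to 113 triplets in the other collagens (median 52), so no run of either class came near the fibrillar ones. Coding exons of exactly 54 bases, a unit of 18 codons, numbered 21 to 33 per gene in the fibrillar collagens, 1 to 3 in the basement membrane collagens and 0 to 28 in the others. The first such exon of each of the 3 most abundant fibrillar genes and of Col4a1 is printed below 5′ to 3′ with its glycine codons in capitals, to show the repeat the classes share. The exons lie at chr11:94939904-94939957 (plus strand) for Col1a1, chr6:4515481-4515534 (plus) for Col1a2, chr1:45325360-45325413 (plus) for Col3a1 and chr8:11245211-11245264 (minus) for Col4a1, all in GRCm38.
Col1a1 exon: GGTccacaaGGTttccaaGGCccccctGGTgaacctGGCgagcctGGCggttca
Col1a2 exon: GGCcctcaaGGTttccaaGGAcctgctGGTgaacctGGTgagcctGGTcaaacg
Col3a1 exon: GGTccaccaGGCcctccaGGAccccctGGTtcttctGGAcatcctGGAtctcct
Col4a1 exon: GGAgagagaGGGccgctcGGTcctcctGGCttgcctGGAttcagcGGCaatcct
Each of the 4 exons holds 6 glycine codons, 1 at the start of each triplet. The repeat continues through the whole helix of Col1a1 (338 triplets) but only through stretches of up to 40 triplets in Col4a1.

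Library totals ran from 20233559 to 22932095 counts for LNP-GFP and from 15991826 to 18751784 counts for LNP-Gsdme. The monocyte label was checked against 12 monocyte markers, and 12 of 12 were tested. Their summed level was 8223 to 9975 CPM in LNP-GFP and 8954 to 11150 CPM in LNP-Gsdme (CPM, the count as a share of the scaled library total), with Lyz2, a lysozyme of myeloid cells, and Csf1r, the receptor of macrophage colony-stimulating factor, highest by the mean over the 6 libraries. Ly6c2, which encodes the antigen used in the sort, rose by 2.66 on the log2 scale (SE 0.16), and 4 of the 12 rose and 0 fell (adjusted p below 0.05 by edgeR's quasi-likelihood test, which 6.3% of all tested genes passed in rising and 5.32% in falling), where 2 had an unadjusted p below 0.05 in the falling direction. Those 2 were Csf1r and Lyz2, with log2 fold changes of -0.40 and -0.44 (edgeR adjusted p = 0.104 and 0.120). In both, every LNP-Gsdme library was below every LNP-GFP library, as in 18.2% of all tested genes. The 4 rises became 2 without LNP-GFP 3, LNP-Gsdme 1 or LNP-Gsdme 2, and 5 without LNP-GFP 1. LNP-GFP 3 stood apart in one way, in that its level fell in the gap separating LNP-GFP 1 from LNP-GFP 2 in 61.9% of all tested genes and in 22 of 31 tested collagens. Results are therefore given with and without it where its removal changes them.

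Collagen RNA was lower in the sorted monocytes from LNP-Gsdme tumours in each class. Together the 44 genes held 1.18, 1.25 and 1.21% of the counts of LNP-GFP 1, 2 and 3, against 0.383, 0.298 and 0.757% of those of LNP-Gsdme 1, 2 and 3. The groups did not overlap, and LNP-Gsdme 3 lay between the other LNP-Gsdme libraries and LNP-GFP. Of the 31 collagens with enough counts to be tested, 14 fell and 0 rose (edgeR quasi-likelihood test over 16010 genes, Benjamini-Hochberg adjusted p below 0.05), where 5.32% of all tested genes fell and 6.3% rose. At an unadjusted p below 0.05, 22 collagens were lower and 0 were higher, where 2471 of all 16010 tested genes were lower and 2580 higher. limma-voom and DESeq2 also called 0 collagens higher. The log2 fold change of LNP-Gsdme over LNP-GFP was negative in 31 of 31, with a median of -1.28 and a range of -2.50 to -0.23, while the median over all tested genes was -0.0066. All 3 LNP-Gsdme libraries were below all 3 LNP-GFP libraries in 24 of the 31 collagens, against 18.2% of all tested genes.

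The number of collagens called depended on single libraries. It was 0 without LNP-GFP 3, 0 without LNP-Gsdme 1 and 0 without LNP-Gsdme 2. At an unadjusted p below 0.05, 21, 23 and 21 collagens were lower in those fits of edgeR's quasi-likelihood test. Over all tested genes, 1643 of 16219, 1829 of 16527 and 1792 of 16512 were lower at that threshold. The calls over all genes dropped in the same fits, to 0.148, 0.278 and 0.412% fallen, while the median log2 fold change of the collagens was -1.24, -1.07 and -1.02. The count of called collagens was 2 without LNP-GFP 2, 7 without LNP-GFP 1 and 22 without LNP-Gsdme 3, where 2.18, 7.45 and 7.27% of all tested genes fell. LNP-Gsdme 3 was the LNP-Gsdme library with the most collagen RNA. With all libraries DESeq2 called 21 collagens and limma-voom 19, the 14 among them in both. These methods called 9.4 and 5.58% of all tested genes lower. A lower count in a sorted population can come from fewer cells of a collagen-making type or from less collagen RNA per cell, and bulk libraries cannot tell these apart. CD11b is a leukocyte integrin, so the sort gate was not set for fibroblasts or other stromal cells. RNA of fibroblast and melanoma markers was present in these libraries, as given below. Whether such cells entered the sort was not tested.

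**Figure D1:**
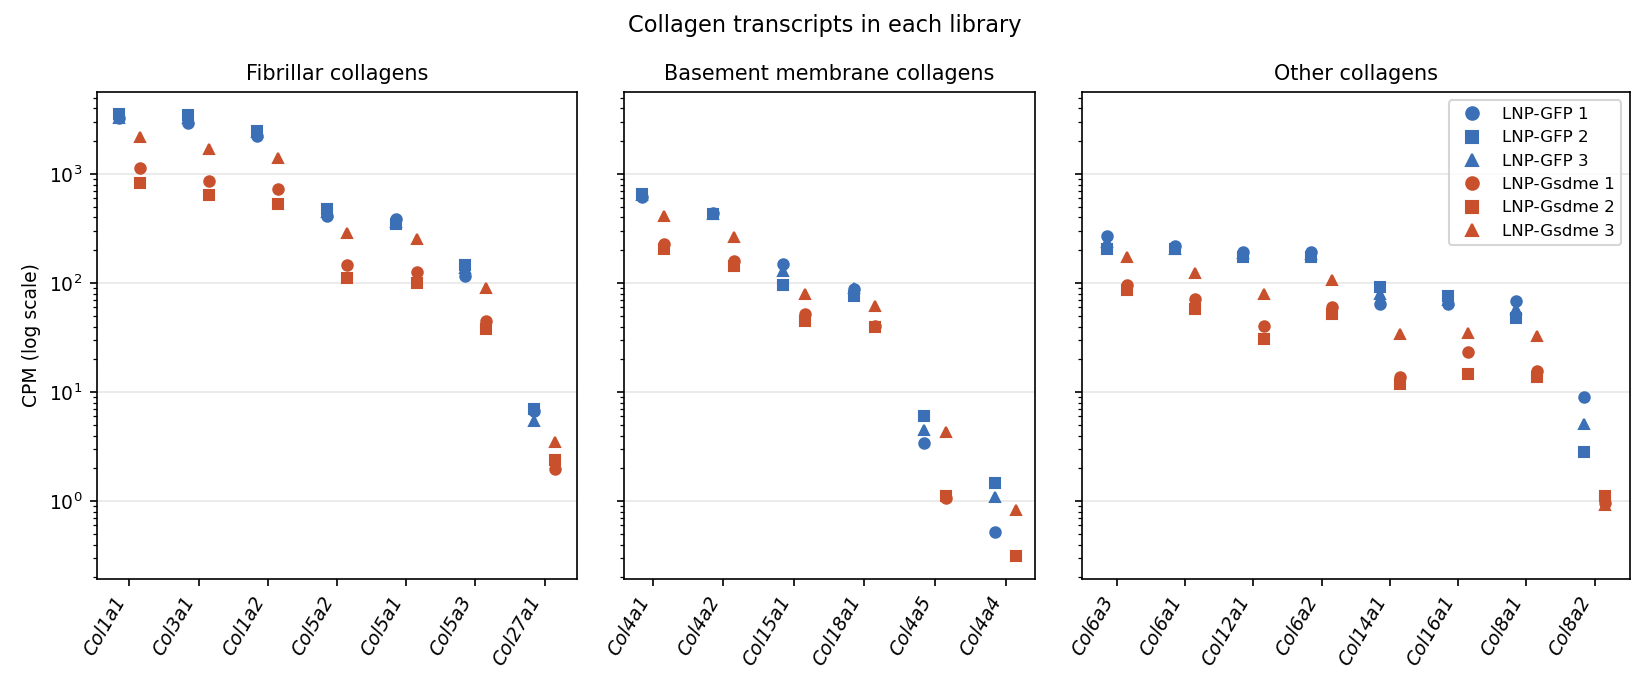
Level of the 7 fibrillar, 6 basement membrane and 8 other collagens with the highest mean in each library, in CPM on a log axis, with LNP-GFP libraries in blue and LNP-Gsdme libraries in red (Col4a4 in LNP-Gsdme 1 is at 0 and cannot be drawn). The 3 LNP-Gsdme points lie below the 3 LNP-GFP points in each of these genes except Col4a5 and Col4a4.

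The 13 collagens that were not tested held at most 23 counts each over the 6 libraries. They were Col2a1, the main collagen of cartilage, among the fibrillar genes, Col4a3 and Col4a6 among the basement membrane genes, and Col6a5, Col6a6, Col9a1, Col9a2, Col10a1, Col17a1, Col19a1, Col22a1, Col25a1 and Col26a1 among the others. The filter asks for counts in at least 1 group, so the shared direction of the 31 genes does not describe these 13. A low gene can pass it through LNP-GFP alone, and its log2 fold change is then likely to be negative. Col4a4, at 0.523, 1.47 and 1.10 CPM in LNP-GFP and 0, 0.312 and 0.825 CPM in LNP-Gsdme, lay near this filter. With no filter the log2 fold change was negative in 41 of 44 collagens.

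Among the 11 fibrillar collagens, 10 were tested, 3 fell (Col3a1, Col1a2 and Col27a1), 0 rose at an adjusted or an unadjusted p below 0.05, and 7 did not pass. Over all tested genes 5.32% fell. In 10 of 10 every LNP-Gsdme library was below every LNP-GFP library, against 18.2% of all tested genes, and the median log2 fold change was -1.29. The count was 0 without LNP-GFP 3, LNP-Gsdme 1 or LNP-Gsdme 2, 1 without LNP-GFP 2, 2 without LNP-GFP 1 and 8 without LNP-Gsdme 3. limma-voom called 7 and DESeq2 8 of the 10, where both added Col1a1 and the type V genes and DESeq2 also Col11a1.

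Col3a1 (chr1:45350698-45388866 in GRCm39), the single chain of type III collagen, which lies with type I in extensible tissue, measured 2945, 3481 and 3274 CPM across LNP-GFP 1, 2 and 3, against 863, 648 and 1695 CPM across LNP-Gsdme 1, 2 and 3. The highest LNP-Gsdme library, LNP-Gsdme 3, remained well below the lowest LNP-GFP library. Col3a1 fell from 3233 ± 270 to 1069 ± 553 CPM (SD, n = 3 each), a change of -1.60 ± 0.35 on the log2 scale (SE; edgeR adjusted p = 0.0358). Col1a2 (chr6:4504814-4541544), the second chain of type I collagen, measured 2213, 2467 and 2420 CPM in LNP-GFP and 736, 529 and 1392 CPM in LNP-Gsdme. Its groups did not overlap, and it fell by 1.42 on the log2 scale (SE 0.34; edgeR adjusted p = 0.0448).

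Col1a1 (chr11:94827050-94843868), the first chain of type I collagen and the most abundant collagen, missed the threshold. Its level was 3286, 3547 and 3259 CPM in LNP-GFP and 1143, 828 and 2173 CPM in LNP-Gsdme. LNP-Gsdme 3 held more than the other LNP-Gsdme libraries, although the groups did not overlap. On the log2 scale the difference was -1.28 ± 0.34 (SE; edgeR adjusted p = 0.0567), with adjusted p-values from 0.000694 to 0.177 over the alternatives.

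Type V collagen is incorporated into type I fibrils and sets their width. Its chain genes Col5a2 (chr1:45413481-45542442), Col5a1 (chr2:27776437-27929526) and Col5a3 (chr9:20681346-20726363) had log2 fold changes of -1.30, -1.19 and -1.22, with edgeR adjusted p of 0.0553, 0.0634 and 0.0568. Col5a2 measured 414, 479 and 446 CPM in LNP-GFP and 146, 113 and 287 CPM in LNP-Gsdme, with LNP-Gsdme 3 the highest of its group. Col5a1 measured 385, 349 and 366 CPM against 127, 101 and 253 CPM, and Col5a3 116, 147 and 138 CPM against 45.1, 38.1 and 89.3 CPM. None of the 3 overlapped between groups, and none passed the test. Col27a1 (chr4:63132241-63253228), a fibrillar collagen of cartilage whose longest uninterrupted run of glycine triplets was 217, fell at a low level. It measured 6.76, 7.05 and 5.50 CPM in LNP-GFP and 1.97, 2.37 and 3.50 CPM in LNP-Gsdme, and fell by 1.29 on the log2 scale (SE 0.24; edgeR adjusted p = 0.0258). The 3 remaining tested genes, Col11a1, Col11a2 and Col24a1, stayed under 10 CPM in every library and were not called, with adjusted p of 0.0585, 0.181 and 0.191.

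Among the 8 basement membrane collagens, 6 were tested, 4 fell (Col4a1, Col4a2, Col15a1 and Col18a1), 0 rose at an adjusted or an unadjusted p below 0.05, and 2 did not pass (Col4a5 and Col4a4). Over all tested genes 5.32% fell. In 4 of the 6 every LNP-Gsdme library was below every LNP-GFP library, against 18.2% of all tested genes, and the median log2 fold change was -1.14. The count of 4 became 0 without LNP-GFP 2, LNP-GFP 3, LNP-Gsdme 1 or LNP-Gsdme 2, 1 without LNP-GFP 1 and 5 without LNP-Gsdme 3. It was 2 where libraries were scaled by their totals alone, which lost Col15a1 and Col18a1.

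Col4a1 (chr8:11248423-11362826) and Col4a2 (chr8:11362805-11499287) encode the chains of the type IV network found in nearly every basement membrane. Col4a1 measured 623, 654 and 639 CPM in LNP-GFP and 230, 206 and 411 CPM in LNP-Gsdme. Col4a2 measured 439, 430 and 428 CPM in LNP-GFP and 158, 143 and 264 CPM in LNP-Gsdme. In both genes the LNP-GFP libraries lay close together and LNP-Gsdme 3 lay above LNP-Gsdme 1 and 2. Col4a1 fell from 638 ± 15.5 to 282 ± 112 CPM (SD, n = 3 each), by 1.18 on the log2 scale (SE 0.26; edgeR adjusted p = 0.0369), and Col4a2 fell by 1.197 (SE 0.23; adjusted p = 0.0272).

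The 2 genes are arranged head to head. In the deposited GRCm39 positions they overlap by 22 bases at their starts, so a read in that overlap could be counted for either. The RefSeq promoter windows of GRCm38.p6, which run from 250 bases before to 50 bases after each start, share 78 bases on opposite strands. Both windows are printed because the genes fell by nearly the same amount, with the shared bases in capitals. The Col4a1 window is chr8:11312777-11313076 on the minus strand and the Col4a2 window is chr8:11312555-11312854 on the plus strand.
Col4a1 promoter window: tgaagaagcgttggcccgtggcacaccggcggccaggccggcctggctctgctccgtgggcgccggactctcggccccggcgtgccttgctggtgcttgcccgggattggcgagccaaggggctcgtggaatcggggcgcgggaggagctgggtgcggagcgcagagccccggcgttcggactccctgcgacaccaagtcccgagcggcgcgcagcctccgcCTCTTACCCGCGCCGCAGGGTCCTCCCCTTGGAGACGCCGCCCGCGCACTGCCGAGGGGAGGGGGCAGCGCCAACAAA
Col4a2 promoter window: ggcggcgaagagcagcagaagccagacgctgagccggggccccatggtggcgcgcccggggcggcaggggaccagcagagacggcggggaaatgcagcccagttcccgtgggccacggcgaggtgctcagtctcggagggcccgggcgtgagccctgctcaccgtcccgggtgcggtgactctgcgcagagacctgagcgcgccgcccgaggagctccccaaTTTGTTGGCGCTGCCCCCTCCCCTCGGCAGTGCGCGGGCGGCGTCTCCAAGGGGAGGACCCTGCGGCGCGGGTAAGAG
On both strands, the letters CCAAT were found at position -32 from the start in the Col4a2 window and, as ATTGG, at -145 in the Col4a1 window. The letters GGGCGG were found at -192 and 7 and, as CCGCCC, at -48 in the Col4a2 window, and as CCGCCC at 9 in the Col4a1 window. The match at 7 in the Col4a2 window and that at 9 in the Col4a1 window are the same shared bases, read on opposite strands. CCAAT occurred in 37.4% of 32851 mouse windows of this length and in 10 of 28 windows of tested collagens (35.7%). GGGCGG occurred in 35.7% of all windows and in 18 of the 28 (64.3%), and TATAAA in 13.6% and in 3 of the 28 (10.7%). These are matches of letters and not measured binding.

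Col4a1 and Col4a2 kept step with each other. The ratio of Col4a1 to Col4a2 on the FPKM scale (counts per gene length and library total) was 0.965, 1.04 and 1.02 in LNP-GFP and 0.987, 0.980 and 1.06 in LNP-Gsdme, so the groups overlapped. The 2 other tested type IV chains, Col4a5 (chrX:140258381-140472230) and Col4a4 (chr1:82426144-82564570), known from the filtering membrane of the kidney, were low and spread widely. Col4a5 measured 3.40, 6.0 and 4.55 CPM in LNP-GFP and 1.07, 1.12 and 4.33 CPM in LNP-Gsdme. Col4a4 measured 0.523, 1.47 and 1.10 CPM in LNP-GFP and 0, 0.312 and 0.825 CPM in LNP-Gsdme. Both overlapped between groups through LNP-Gsdme 3, and neither passed (edgeR adjusted p = 0.239 and 0.306).

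Col15a1 (chr4:47208161-47313167) and Col18a1 (chr10:76888012-77002382) encode collagens that carry sugar chains in basement membrane zones, and the end of type XVIII is released as endostatin. Col15a1 measured 151, 96.8 and 129 CPM in LNP-GFP and 51.6, 44.9 and 79.8 CPM in LNP-Gsdme. It fell by 1.09 on the log2 scale (SE 0.26; edgeR adjusted p = 0.0430). Col18a1 measured 87.6, 76.2 and 89.9 CPM in LNP-GFP and 40.3, 39.5 and 61.7 CPM in LNP-Gsdme. It fell by 0.84 (SE 0.19; edgeR adjusted p = 0.0381), the smallest fall among the 14 called collagens. In both genes the groups did not overlap.

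Among the 25 other collagens, 15 were tested, 7 fell, 0 rose at an adjusted or an unadjusted p below 0.05, and 8 did not pass. Over all tested genes 5.32% fell. In 10 of the 15 every LNP-Gsdme library was below every LNP-GFP library, against 18.2% of all tested genes, and the median log2 fold change was -1.31. The count of 7 was 0 without LNP-GFP 3, LNP-Gsdme 1 or LNP-Gsdme 2, 1 without LNP-GFP 2, 4 without LNP-GFP 1 and 9 without LNP-Gsdme 3.

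Type VI collagen forms beaded filaments around cells. Col6a1 (chr10:76544626-76562002) measured 218, 205 and 204 CPM in LNP-GFP and 72.3, 57.4 and 123 CPM in LNP-Gsdme, and Col6a2 (chr10:76431596-76459464) measured 191, 173 and 183 CPM against 60.7, 51.6 and 108 CPM. Both fell by 1.31 on the log2 scale (SE 0.27 in each; edgeR adjusted p = 0.0321 and 0.0317), with no overlap between groups. Col6a3 (chr1:90693645-90771693), the largest chain, measured 269, 205 and 238 CPM in LNP-GFP and 95.6, 86.5 and 173 CPM in LNP-Gsdme. Its groups did not overlap either, and it missed the threshold at -1.001 on the log2 scale (SE 0.27; edgeR adjusted p = 0.0623).

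Among tested collagens with a mean above 10 CPM in LNP-GFP, the largest falls were in Col12a1 and Col14a1, of the collagens that lie on fibril surfaces (the FACIT group, 5 of 9 tested and 3 fallen). Col12a1 (chr9:79506273-79626113), a coat of type I fibrils, measured 194, 174 and 189 CPM in LNP-GFP and 40.3, 30.9 and 79.0 CPM in LNP-Gsdme. It fell by 1.89 (SE 0.34; edgeR adjusted p = 0.0236). Col14a1 (chr15:55171146-55384199), a related fibril coat, measured 64.9, 92.7 and 80.3 CPM against 13.7, 11.98 and 34.4 CPM. It fell by 1.98 (SE 0.41; edgeR adjusted p = 0.0326). Col16a1 (chr4:129941633-129993076) measured 63.9, 75.4 and 69.4 CPM against 23.2, 14.7 and 34.8 CPM and fell by 1.52 (SE 0.29; edgeR adjusted p = 0.0271). None of the 3 overlapped between groups, while Col9a3 and Col20a1 of the same group stayed at or below 1.33 CPM and were not called (edgeR adjusted p = 0.623 and 0.641).

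Type VIII collagen forms a hexagonal network in vessel walls and under the corneal endothelium. Col8a1 (chr16:57444621-57575100) measured 68.3, 47.9 and 58.0 CPM in LNP-GFP and 15.8, 13.8 and 32.5 CPM in LNP-Gsdme and fell by 1.48 (SE 0.34; edgeR adjusted p = 0.0401). Col8a2 (chr4:126180586-126208123) measured 9.03, 2.84 and 5.15 CPM in LNP-GFP and 0.955, 1.12 and 0.928 CPM in LNP-Gsdme. It fell by 2.50 (SE 0.45; edgeR adjusted p = 0.0246), the largest fall of any tested collagen, at a level where LNP-Gsdme held 17 to 18 counts per library. The groups stood apart in both genes, and unlike Col8a1, Col8a2 was not raised in LNP-Gsdme 3.

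The transmembrane collagens Col13a1 and Col23a1, the anchoring fibril gene Col7a1, and Col28a1 and Col6a4 were not called, with log2 fold changes of -0.52, -0.89, -0.31, -1.43 and -1.30 and edgeR adjusted p of 0.396, 0.0766, 0.482, 0.356 and 0.0832. Each of them stayed below 7 CPM in every library.

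**Figure D2:**
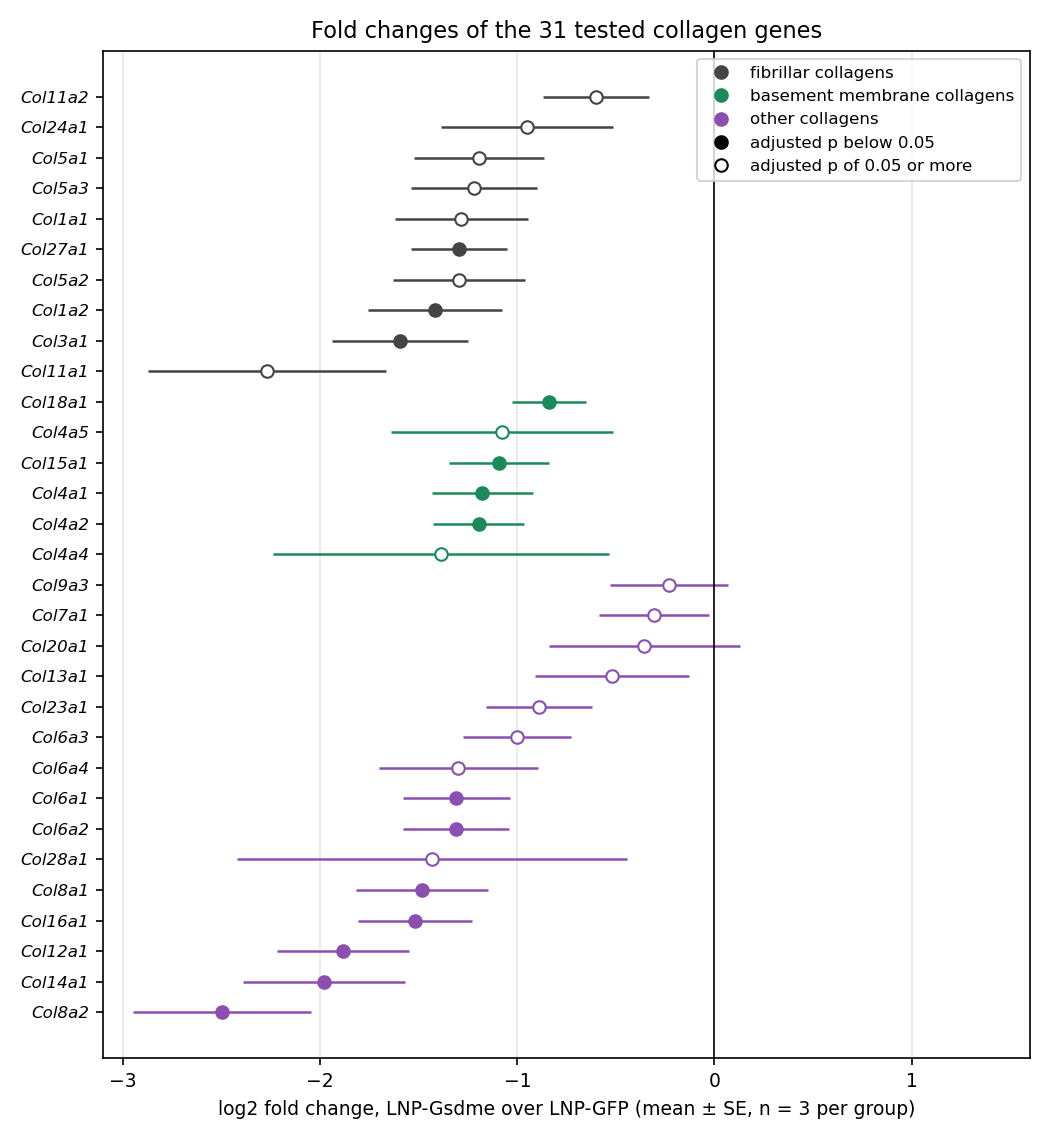
Log2 fold change of LNP-Gsdme over LNP-GFP for the 31 tested collagens by class, as the edgeR estimate with its SE (n = 3 per group), filled where the adjusted p was below 0.05. The 31 points lie between -2.50 and -0.23, and the classes overlap along the axis.

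The classes were set side by side by their summed levels. The fibrillar collagens summed to 9930 ± 553 CPM in LNP-GFP and 3743 ± 1910 CPM in LNP-Gsdme (SD, n = 3 each), so the LNP-Gsdme mean was 37.7% of the LNP-GFP mean. The basement membrane collagens summed to 1286 ± 20.6 and 579 ± 211 CPM (45.0%) and the other collagens to 1042 ± 46.4 and 401 ± 173 CPM (38.5%). The summed level of each class was lower in every LNP-Gsdme library than in every LNP-GFP library. The ratio of fibrillar to basement membrane CPM was 7.19, 8.30 and 7.68 in LNP-GFP and 6.38, 5.21 and 7.18 in LNP-Gsdme. The ratio was lower in each LNP-Gsdme library, but LNP-Gsdme 3 at 7.18 and LNP-GFP 1 at 7.19 were closer to each other than the libraries within either group. No test of the difference between classes was made beyond this, since with 3 libraries against 3 an exact two-sided permutation test cannot go below 0.1.

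On the FPKM scale, which allows levels to be compared between genes, the makeup of the collagen RNA differed less between groups than its amount. Fibrillar collagens made up 77.9, 80.4 and 79.1% of the summed collagen FPKM in LNP-GFP and 77.3, 74.3 and 79.0% in LNP-Gsdme. Basement membrane collagens made up 12.03, 10.8 and 11.6% in LNP-GFP and 13.3, 15.7 and 12.03% in LNP-Gsdme. Both shares were shifted most in LNP-Gsdme 2, the library with the least collagen RNA, and for both classes LNP-Gsdme 3 lay within or at the edge of the LNP-GFP range. The mean level of Col1a1 was 480 ± 18.4 FPKM in LNP-GFP and 202 ± 108 FPKM in LNP-Gsdme (SD, n = 3 each), which ranked it 96th and 262nd among all genes. Col3a1 followed at 298 and 101 FPKM, Col1a2 at 144 and 55.5 FPKM, Col4a1 at 62.6 and 28.4 FPKM and Col4a2 at 62.3 and 27.8 FPKM. The first 9 collagens by level came in the same order in both groups.

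Ratios between chains were taken for more pairs than those in which the groups stood apart. The groups overlapped in Col5a1 over Col5a2 (0.993, 0.778 and 0.877 in LNP-GFP, 0.932, 0.957 and 0.9405 in LNP-Gsdme). They also overlapped in Col5a3 over Col5a2, Col8a1 over Col8a2, Col4a1 over Col1a1 and Col15a1 over Col4a1. Col6a1 over Col6a2 ranged from 2.08 to 2.22 across LNP-GFP and from 2.07 to 2.22 across LNP-Gsdme on the FPKM scale, so these chains kept step. Col1a1 over Col1a2 was 3.47, 3.36 and 3.15 in LNP-GFP and 3.63, 3.66 and 3.65 in LNP-Gsdme, and Col6a3 over Col6a2 was 0.868, 0.734 and 0.800 in LNP-GFP and 0.972, 1.04 and 0.993 in LNP-Gsdme. In both ratios every LNP-Gsdme library was above every LNP-GFP library. Of the ratios chosen after the fold changes had been seen, Col3a1 over Col1a1 was 0.579, 0.634 and 0.649 in LNP-GFP and 0.487, 0.506 and 0.504 in LNP-Gsdme. Col12a1 over Col1a1 was 0.0231, 0.0192 and 0.0227 in LNP-GFP and 0.0138, 0.0146 and 0.0143 in LNP-Gsdme. Both were lower in every LNP-Gsdme library, and neither followed the amount of collagen RNA within LNP-Gsdme, since LNP-Gsdme 3 stood beside LNP-Gsdme 1 and 2. Col18a1 over Col4a1 moved the other way, from 0.161, 0.133 and 0.161 to 0.200, 0.219 and 0.172.

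**Figure D3:**
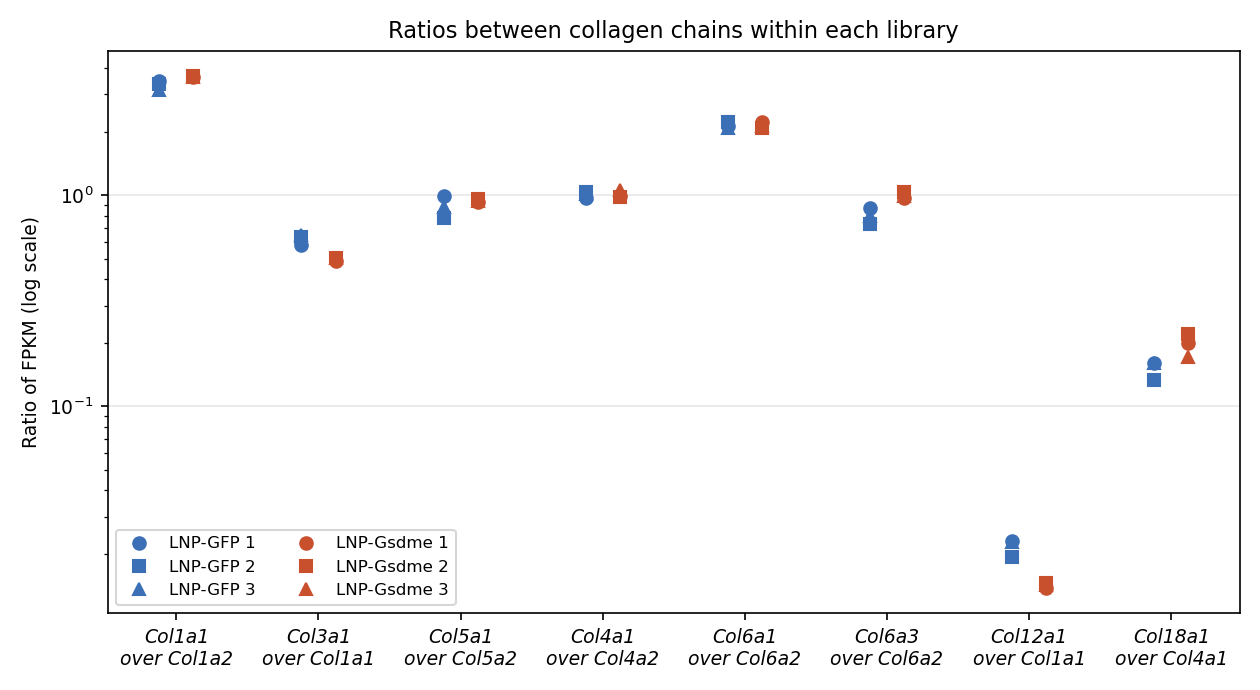
Ratio of FPKM between pairs of collagen chains in each library on a log axis, with LNP-GFP in blue and LNP-Gsdme in red. The Col4a1 over Col4a2 ratio lies between 0.965 and 1.06 in the 6 libraries, while Col3a1 over Col1a1 lies between 0.579 and 0.649 in LNP-GFP and between 0.487 and 0.506 in LNP-Gsdme.

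Within LNP-Gsdme, LNP-Gsdme 3 was the highest of the 3 libraries in 25 of the 31 tested collagens, and LNP-Gsdme 2 the lowest in 22. The same shares over all tested genes were not taken. LNP-Gsdme 3 was also highest in 15 of 17 fibroblast, 11 of 11 pericyte and smooth muscle and 10 of 11 endothelial markers, against 1 of 12 monocyte markers. A high LNP-Gsdme 3 was therefore not particular to the collagens. The median collagen stood at 33.4, 28.3 and 64.4% of its LNP-GFP mean in LNP-Gsdme 1 to 3. The corresponding medians were 31.9, 26.3 and 61.6% for the fibrillar, 36.3, 32.7 and 68.7% for the basement membrane and 33.4, 27.5 and 59.1% for the other collagens, so each class showed the same order of libraries.

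Markers of other cell types were measured in the same libraries, and their part in the collagen result was not tested. The counts of each marker and pathway list below stand beside 5.32% of all tested genes fallen and 6.3% risen. Of 17 fibroblast markers that are not collagens, 17 were tested, 7 fell and 0 rose (also 0 rose at an unadjusted p below 0.05), with a median log2 fold change of -1.09, and their summed level was 1772 to 1888 CPM in LNP-GFP and 984 to 1388 CPM in LNP-Gsdme. Postn, a matrix protein of activated fibroblasts, measured 446, 336 and 387 CPM in LNP-GFP and 117, 95.3 and 213 CPM in LNP-Gsdme, and Pdpn, a surface glycoprotein, 224, 307 and 269 CPM against 117, 97.0 and 149 CPM. Both fell, by 1.46 and 1.14 on the log2 scale (SE 0.30 and 0.19; edgeR adjusted p = 0.0326 and 0.0205). Gsn, an actin-severing protein that myeloid cells also express, had the highest mean of the list and measured 418, 429 and 421 CPM against 479, 458 and 451 CPM, with a log2 fold change of 0.13 (edgeR adjusted p = 0.218). The median fibroblast marker stood at 38.4, 35.4 and 57.2% of its LNP-GFP mean in LNP-Gsdme 1 to 3, where the median collagen stood at 33.4, 28.3 and 64.4%. The 7 fibroblast markers called became 0 without LNP-GFP 3, LNP-Gsdme 1 or LNP-Gsdme 2, 1 without LNP-GFP 2, and 14 without LNP-Gsdme 3.

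The ratio of summed collagen CPM to summed fibroblast marker CPM was 6.64, 6.75 and 6.71 in LNP-GFP and 3.58, 3.02 and 5.27 in LNP-Gsdme. Gsn and Thy1, a surface glycoprotein that T cells also carry, were the 2 markers of the list with a positive log2 fold change (0.13 and 0.40), and neither was called. Without Gsn, a choice made after the values were seen, the ratio was 8.69, 8.74 and 8.72 in LNP-GFP and 6.41, 5.64 and 7.82 in LNP-Gsdme. Without Gsn and Thy1, chosen in the same way, it was 9.77, 9.18 and 9.47 in LNP-GFP and 8.71, 7.63 and 9.17 in LNP-Gsdme, so that LNP-Gsdme 3 met LNP-GFP 2. Removal of the 2 markers that were not lower had to bring the groups closer, so the narrower gap follows from that choice. For the fibrillar collagens the ratio without both was 7.78, 7.55 and 7.67 in LNP-GFP and 6.89, 5.81 and 7.395 in LNP-Gsdme, with no overlap. For the other collagens it was 0.903, 0.717 and 0.804 in LNP-GFP and 0.742, 0.701 and 0.750 in LNP-Gsdme, which overlap. For the basement membrane collagens the ratio without both was 1.082, 0.910 and 0.998 in LNP-GFP and 1.08, 1.12 and 1.03 in LNP-Gsdme, which overlap.

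Pericyte and smooth muscle markers were also lower, with 11 of 11 tested, 4 fallen, 0 risen (0 at an unadjusted p below 0.05), a median log2 fold change of -1.02 and summed levels of 307 to 400 CPM in LNP-GFP and 131 to 270 CPM in LNP-Gsdme. Rgs5, a pericyte regulator of G protein signalling, fell from 89.6 ± 10.1 to 38.7 ± 17.3 CPM (SD, n = 3 each; edgeR adjusted p = 0.0483), while Acta2 and Mcam were not called. The 4 became 0 without LNP-GFP 3, 1 without LNP-GFP 2, LNP-Gsdme 1 or LNP-Gsdme 2, 2 without LNP-GFP 1 and 8 without LNP-Gsdme 3. Of 11 endothelial markers 11 were tested, 1 fell (Vwf, chosen after its value was seen; 5.32% of all tested genes fell) and 0 rose (0 at an unadjusted p below 0.05), with a median of -0.60 and sums of 405 to 501 CPM against 305 to 395 CPM; the 3 highest by the mean over the 6 libraries, Kdr, Flt1 and Pecam1, were not called. The endothelial count was 0 without LNP-GFP 3, LNP-Gsdme 1 or LNP-Gsdme 2 and 6 without LNP-Gsdme 3.

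Melanoma markers were tested for 9 of 9 genes, and 0 fell and 0 rose, where 2 were lower and 0 higher at an unadjusted p below 0.05. Their sum was 657, 2531 and 1622 CPM across the LNP-GFP libraries and 418, 470 and 1027 CPM across the LNP-Gsdme libraries, so it varied more within LNP-GFP than the collagens did. Of 8 keratinocyte markers 2 were tested, of 8 skeletal muscle markers 4, of 7 adipocyte markers 1 (Fabp4) and of 7 Schwann cell markers 5. In these 4 lists 0 genes passed the edgeR test, and the epidermal keratin Krt1 and the muscle regulator Myod1 were at 0 counts in each of the 6 libraries. At an unadjusted p below 0.05 the lists held 0, 1, 1 and 1 lower and 0 higher genes. Summed levels were 5.22 to 10.4 against 6.91 to 8.36 CPM for keratinocyte, 8.43 to 11.4 against 5.23 to 9.64 CPM for skeletal muscle, 69.5 to 72.2 against 30.8 to 66.4 CPM for adipocyte and 80.6 to 133 against 69.6 to 85.8 CPM for Schwann cell markers.

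**Figure D4:**
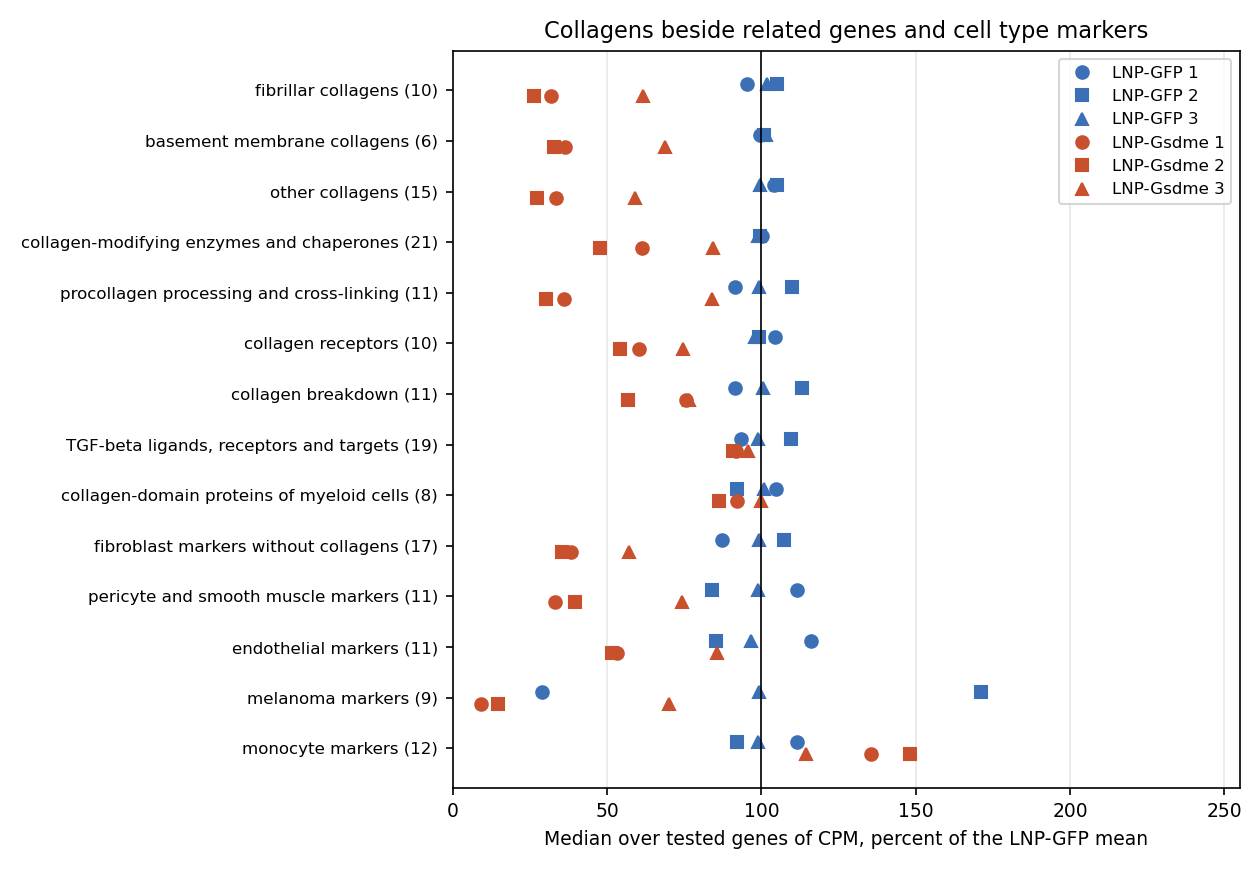
Median over the tested genes of each list of the CPM in each library, in percent of the LNP-GFP mean, for the collagen classes, the collagen pathway lists and the marker lists (number of tested genes in brackets). The collagen classes stand at 26.3 to 36.3% in LNP-Gsdme 1 and 2 and at 59.1 to 68.7% in LNP-Gsdme 3, and the monocyte markers stand above 100% in each LNP-Gsdme library.

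Before secretion, collagen chains are hydroxylated, glycosylated and folded in the endoplasmic reticulum. Of 21 genes for these enzymes and chaperones 21 were tested, 3 fell and 0 rose (1 was higher at an unadjusted p below 0.05), with a median log2 fold change of -0.64. Serpinh1, the collagen-specific chaperone, measured 229, 230 and 243 CPM in LNP-GFP and 98.4, 110 and 147 CPM in LNP-Gsdme. It fell by 0.98 (SE 0.15; edgeR adjusted p = 0.0180), with no overlap between groups. P4hb, a subunit of prolyl 4-hydroxylase that also folds other proteins, fell by 0.49 (SE 0.091; edgeR adjusted p = 0.0252). Colgalt2, a collagen galactosyltransferase, fell by 1.503 (SE 0.35; edgeR adjusted p = 0.0412) from a level of about 1 CPM or less. It measured 1.09, 0.962 and 0.699 CPM in LNP-GFP and 0.225, 0.437 and 0.309 CPM in LNP-Gsdme, near the filter on low counts. With the stricter filter 20 genes of this list were tested and 2 fell. P4ha1, the catalytic subunit that pairs with P4hb, named after its values were seen, measured 160, 129 and 145 CPM in LNP-GFP and 144, 136 and 154 CPM in LNP-Gsdme, which overlap (edgeR adjusted p = 0.999). The 3 calls became 0 without LNP-GFP 3, LNP-Gsdme 1 or LNP-Gsdme 2, 1 without LNP-GFP 2 and 11 without LNP-Gsdme 3, and 2 fell and 1 rose without LNP-GFP 1.

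After secretion the ends of procollagen are trimmed and the chains are cross-linked. Of 13 genes 11 were tested, and 0 fell and 0 rose by edgeR's test, where 6 were lower and 1 was higher at an unadjusted p below 0.05, with a median of -1.02. limma-voom called 2 and DESeq2 6 of them lower. Bmp1, the protease that removes the carboxy-terminal end, measured 60.1, 79.7 and 65.1 CPM in LNP-GFP and 19.6, 18.5 and 44.6 CPM in LNP-Gsdme (log2 fold change -1.31 ± 0.35 SE, n = 3 per group; edgeR adjusted p = 0.0597). Its groups did not overlap. In this list 1 fell and 1 rose without LNP-GFP 1, and 7 fell without LNP-Gsdme 3.

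Cells bind collagen through integrins and other receptors. Of 12 receptor genes 10 were tested, 5 fell (Itgb1, Itga1, Itga11, Mrc2 and Cd93) and 0 rose (0 at an unadjusted p below 0.05), with a median of -0.69. Mrc2 is an endocytic collagen receptor, and Cd93 is an endothelial and myeloid receptor known chiefly for other matrix ligands. Lair1, named after its values were seen, measured 110, 30.5 and 69.3 CPM in LNP-GFP and 135, 148 and 131 CPM in LNP-Gsdme. Its LNP-Gsdme libraries were all above its LNP-GFP libraries, as in 19.6% of all tested genes. It was not called (log2 fold change 0.98, edgeR adjusted p = 0.162). By DESeq2 6 receptors fell and 1 rose. Itgb1, the shared beta chain of collagen-binding integrins, measured 584, 607 and 587 CPM in LNP-GFP and 414, 412 and 445 CPM in LNP-Gsdme and fell by 0.48 (SE 0.068; edgeR adjusted p = 0.0135). Itga1 and Itga11, alpha chains of such integrins, fell by 0.80 and 1.71 (SE 0.12 and 0.33; edgeR adjusted p = 0.0164 and 0.0271). Itga1 measured 20.2 to 26.0 CPM in LNP-Gsdme and Itga11 1.44 to 3.61 CPM, below the LNP-GFP libraries in each case. The 5 calls became 0 without LNP-GFP 3, LNP-Gsdme 1 or LNP-Gsdme 2, 4 without LNP-GFP 2, 6 without LNP-Gsdme 3, and 4 falls and 1 rise without LNP-GFP 1.

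Collagen is broken down by matrix metalloproteinases, cathepsins and peptidases, several of them made by both fibroblasts and myeloid cells. Of 12 genes 11 were tested, 5 fell (Mmp14, Prep, Mmp2, Fap and Ctsk) and 0 rose (1 was higher at an unadjusted p below 0.05), with a median of -0.52. Mmp14, a membrane-bound collagenase, measured 446, 613 and 520 CPM in LNP-GFP and 256, 214 and 217 CPM in LNP-Gsdme. It fell by 1.201 (SE 0.14; edgeR adjusted p = 0.00882), and LNP-Gsdme 3 was not the highest LNP-Gsdme library, as it was in 25 of the 31 tested collagens. Mmp2, a gelatinase, measured 89.1, 168 and 139 CPM against 23.0, 21.6 and 49.2 CPM and fell by 2.07 (SE 0.39; adjusted p = 0.0258). Prep, a cytosolic prolyl peptidase, fell by 0.45 (SE 0.071; adjusted p = 0.0184). The 5 calls became 0 without LNP-GFP 3 or LNP-Gsdme 2, 1 without LNP-Gsdme 1, 2 without LNP-GFP 2 and 6 without LNP-GFP 1.

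Transforming growth factor beta is a main inducer of collagen genes in fibroblasts. Of 19 genes for its ligands, latency proteins, receptors and targets 19 were tested, 5 fell (Ltbp4, Tgfbr1, Tgfb2, Ltbp3 and Ccn2) and 0 rose (1 was higher at an unadjusted p below 0.05), with a median of -0.16. Ltbp4, which binds latent TGF-beta to matrix, measured 23.6, 18.5 and 19.4 CPM in LNP-GFP and 5.96, 8.23 and 5.72 CPM in LNP-Gsdme and fell by 1.63 (SE 0.18; edgeR adjusted p = 0.00783). Tgfbr1, a signalling receptor, fell by 0.63 and Tgfb2, a ligand, by 2.10 (SE 0.099 and 0.43; adjusted p = 0.0182 and 0.0317). Tgfb2 measured 13.04, 22.8 and 17.4 CPM against 2.47, 2.81 and 7.01 CPM, with LNP-Gsdme 3 the highest of its group. The other ligands, Tgfb1 and Tgfb3, named after their values were seen, were not called (edgeR adjusted p = 0.293 and 0.299). Their log2 fold changes were -0.16 and 0.65, and Tgfb1 had the highest mean of these ligands, at 574 CPM in LNP-GFP and 514 CPM in LNP-Gsdme. Smad7 was the gene higher at an unadjusted p below 0.05, with a log2 fold change of 0.44. The 5 calls became 0 without LNP-GFP 3 or LNP-Gsdme 1, 1 without LNP-Gsdme 2, 2 without LNP-GFP 2, 4 without LNP-GFP 1 and 7 without LNP-Gsdme 3.

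Proteins that carry a collagen-like domain but are not collagens, most of them known from myeloid cells, served as a contrast. They include the complement subunits C1qa, C1qb and C1qc. Of 8 genes 8 were tested, 1 fell and 1 rose, against 5.32 and 6.3% of all tested genes, with a median of -0.069, and the 3 C1q genes were not called. Fcnb, a ficolin that recognises microbial sugars, rose by 2.07 (SE 0.43; edgeR adjusted p = 0.0333), from 0.393, 1.10 and 0.899 CPM in LNP-GFP to 3.99, 3.99 and 2.06 CPM in LNP-Gsdme. Colec12, a scavenger receptor, fell by 1.24 (SE 0.28, edgeR adjusted p = 0.0376). It measured 20.8, 26.8 and 22.0 CPM in LNP-GFP and 8.26, 6.86 and 14.2 CPM in LNP-Gsdme, and which cells it came from was not tested. The summed level of the 8 genes was 1711 to 2926 CPM in LNP-GFP and 2136 to 2232 CPM in LNP-Gsdme, which overlap. The 2 calls were both lost without LNP-GFP 2, LNP-GFP 3, LNP-Gsdme 1 or LNP-Gsdme 2, and 2 fell and 1 rose without LNP-Gsdme 3.

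A few low collagens varied within LNP-GFP far more than the abundant ones, and were chosen for description by that spread. Col28a1, a collagen of peripheral nerve, had 11, 143 and 66 counts across the LNP-GFP libraries, then 12, 6 and 52 across the LNP-Gsdme libraries, which is 13.9, 190 and 95.8% of the LNP-GFP mean in CPM, then 19.6, 10.9 and 77.9%. The untested Col9a1 had 0, 14 and 4 counts across the LNP-GFP libraries and none elsewhere. LNP-GFP 2 and LNP-GFP 3 were highest in both, and LNP-Gsdme 3 was the highest LNP-Gsdme library for Col28a1. The melanocyte gene Mlana ran in a like order, at 29.6, 177 and 93.8% and then 10.2, 12.5 and 72.7%. Col8a2 and Col11a1 ran in the opposite order within LNP-GFP. Col8a2 stood at 159, 50.1 and 90.7% and then 16.8, 19.8 and 16.4%, and Col11a1 at 155, 36.0 and 109% and then 18.6, 11.6 and 30.95%. The part of melanoma RNA in these patterns was not tested.

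**Figure D5:**
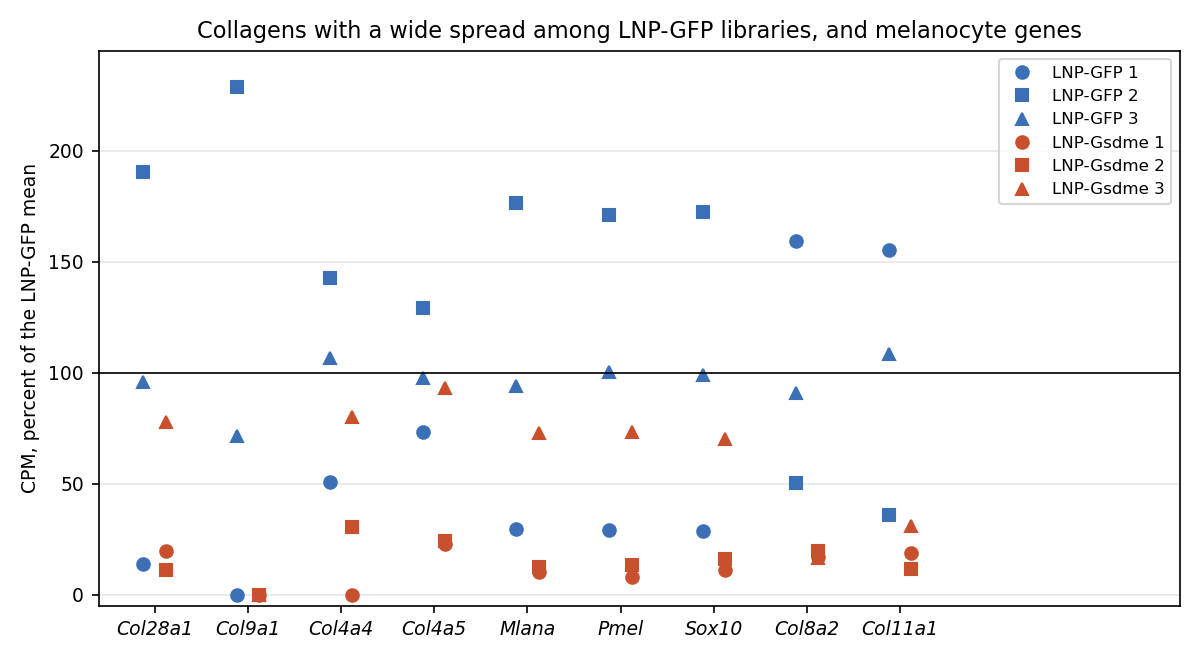
Level of some collagens with a wide spread within LNP-GFP and of melanoma genes, in percent of each gene's LNP-GFP mean CPM, by library. The collagens were chosen after their values were seen. Col9a3 and Col7a1 are not drawn, though their highest LNP-GFP library was 1.90 and 1.83 times the lowest, against 1.76 for the drawn Col4a5. Col28a1 reaches 13.9% in LNP-GFP 1 and 190% in LNP-GFP 2, and Mlana 29.6 and 177%, while Col8a2 runs the other way at 159 and 50.1%.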

How the data were processed

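RNA of 6 libraries was compared, 3 of LNP-GFP and 3 of LNP-Gsdme, grouped by the treatment label and numbered by the title. Per the labels' protocols, total RNA was column-extracted, treated with DNase and made into paired-end TruSeq libraries. The authors deposited raw counts per gene, per the file headers, as whole numbers with no normalization. They also deposited FPKM values, per the file headers. These are the counts over gene length and library total, as was checked on 11356 genes above 50 counts everywhere, whose implied lengths differed by at most 0.00178%. Positions are on GRCm39, per the submitters' processing notes. Aligner, counting tool and strand setting were not given in the sources used here, so reads in genes that overlap may have been counted for either.

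The tests used edgeR 4.0.16 in R 4.3.3, with filterByExpr by group (16010 genes kept), TMM scaling (factors 0.980 to 1.04) and the robust quasi-likelihood test, tested on simulated data, with Benjamini-Hochberg adjustment over all tested genes and calls at an adjusted p below 0.05. The biological coefficient of variation was 0.193. At this depth 1 CPM is about 16 to 23 counts. FPKM served only for levels and ratios between genes.

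The collagen classes, 6 pathway lists and 9 marker lists (172 symbols, 0 unmatched) share Fap (breakdown, fibroblast), Des (pericyte, skeletal muscle) and Sox10 (melanoma, Schwann cell). They were chosen with earlier results of these data known, as was the choice of collagens. Genes were named by a rule: the 7 fibrillar, 6 basement membrane and 8 other collagens with the highest mean CPM, the called collagen with the largest change of each class, collagens not called in a class where most were, up to 3 called genes with the smallest p of each pathway list with 1 moving against its median, and the 3 highest of each marker list. Any other gene was chosen after its values were seen. Alternatives were DESeq2 1.42.0, limma-voom (limma 3.58.1), RLE, upper-quartile or no scaling factors, no or a stricter filter (mean CPM of 1 or more, with 10 or more counts in 3 libraries), no robust fitting, the replicate block, type IV collagens alone and each library left out. Promoter windows came from RefSeq (GRCm38.p6; 35 of the collagens matched, with 38 windows) and exons from GENCODE transcripts (GRCm38). Neither was mixed with the GRCm39 positions.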

Additional observations from a re-analysis of the deposited data

How the results depend on the processing

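The log2 fold change was negative in 31 of 31 tested collagens with RLE, upper-quartile or no scaling factors, without robust fitting, with the replicate block, limma-voom and DESeq2, in 28 of 28 with the stricter filter and in 30 of 31 without LNP-Gsdme 2. With no filter it was negative in 41 of 44. The collagens that fell numbered 14 with all libraries, 0 to 22 when each library was left out, and 6 with no filter on low counts, and those that rose numbered 0 throughout. The fibrillar count (3) ranged from 0 to 8 with a library left out, and was 1 with no filter, 7 with limma-voom and 8 with DESeq2. The basement membrane count (4) ranged from 0 to 5, and was 2 with library size only, 2 with no filter and 2 for type IV collagens alone. The count of other collagens (7) ranged from 0 to 9 and was 3 with no filter. With a library left out fewer samples enter the fit, and the cause beyond that was not tested. Over all genes, 24 to 1216 fell and 64 to 1625 rose with a library left out, and 1505 fell and 1543 rose with DESeq2.

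Pathway counts, falls and rises together, ranged with a library left out from 0 to 11 for modifying enzymes, 0 to 7 for processing, 0 to 6 for receptors, 0 to 6 for breakdown, 0 to 7 for TGF-beta genes and 0 to 3 for collagen-domain proteins. DESeq2 gave 8 modifying enzymes, 6 processing genes and 8 TGF-beta genes, limma-voom 2 processing genes, and 3 receptors were called both with library size only and with no filter. Among genes named by the rule, the values that changed sign were those of Perp, a keratinocyte marker, at 0.28 without LNP-GFP 1 and 0.014 without LNP-Gsdme 3 (-0.30 to 0.28 over the libraries left out), and Mylpf, a muscle marker, at -0.067 without LNP-GFP 2 (-0.067 to 0.38), none of them called. Among the collagens, Col20a1 changed from -0.36 to 0.029 without LNP-Gsdme 2, and it was not called in either.

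Groups share replicate numbers, and the sample labels do not say whether these pair the libraries. Deviations of same-numbered libraries correlated at 0.21, -0.24 and 0.03, and those of differently numbered libraries at -0.33 to 0.32. With 3 libraries per group these values cannot decide whether the libraries were paired. With the replicate number as a block, 0 collagens fell (0 fibrillar, 0 basement membrane and 0 other; 24 at an unadjusted p below 0.05), 52 genes fell and 103 rose in all, and the pathway counts were 1 for modifying enzymes, 0 for receptors, 0 for breakdown, 1 for TGF-beta genes and 0 for collagen-domain proteins. Depth limits the genes near the filter, where Col4a4 had 0 to 32 counts per library.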

Other observations

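Some genes in the deposited table overlap collagen genes. Gm54819, annotated as a microRNA gene within Col3a1, fell (log2 fold change -1.60, edgeR adjusted p = 0.0320) and measured 141, 162 and 151 CPM in LNP-GFP and 40.8, 30.5 and 77.9 CPM in LNP-Gsdme, the order of Col3a1 itself, and its counts equalled 4.68% of those of Col3a1. Slc19a1, a folate carrier gene that overlaps Col18a1, measured 5.10, 5.27 and 5.15 CPM against 2.81, 4.87 and 4.54 CPM, and did not share the order of Col18a1 in LNP-Gsdme. 9230112E08Rik, which overlaps Col20a1, held 711 counts over the 6 libraries, 718% of those of Col20a1. How reads in these overlaps were divided was not given in the labels. Col3a1 and Col5a2 lie 24614 bases apart on chromosome 1, and Col6a1 and Col6a2 lie 85161 bases apart on chromosome 10.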
